A study of Mus musculus with 4 samples.

Results

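The 40 genes examined here are lymphoid lineage genes, from the recombinase pair Rag1 and Rag2 and the B lineage factors Ebf1 and Pax5 to the T cell receptor chains and the natural killer (NK) cell factors Eomes and Tbx21. They were taken from a fixed list of names, chosen with earlier results of these data known, and not by any measured value. They are 40 of the 21755 protein-coding genes on the autosomes and chromosome X. The assay was ATAC-seq, which uses the Tn5 transposase to tag accessible DNA, and the cells were hematopoietic stem cells (HSCs) sorted from bone marrow of adult C57BL/6 mice. The genotypes were WT(Med23floxp/flowp) and KO(Mx1-cre;Med23floxp/flowp), so both carried the floxed Med23 allele and only the KO carried the cre. Its Mx1 promoter responds to interferon and is switched on by injecting poly(I:C), in every cell type that responds, and the sources used here do not say whether the WT mice of this assay were injected as well. The labels give 2 samples for each genotype, 5000 sorted cells each, gated on LSKs as CD150+CD34-CD48- per the labels and without CD34 in the study's methods for this assay, but a single list of peaks stands for both samples of a genotype. The WT list had 37887 peaks on these chromosomes and the KO list 37615. With 1 list for each genotype there is no replicate check, and no test between genotypes was possible. The intervals of ratios below cover counting error only. The Wilson intervals of shares treat genes or regions as independent draws, although many regions belong to the same gene. Neither kind measures the spread between samples.

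HSCs give rise to lymphoid cells through progenitors that switch on the interleukin 7 receptor, rearrange their antigen receptor genes with the Rag proteins and then commit to the B lineage under Ebf1 and Pax5 or to the T lineage under Tcf7 and Bcl11b. Accessible promoters and enhancers of lineage genes in stem cells, before the genes are used, are commonly called primed. Bach2 is a transcriptional repressor of B and T cells, and Bcl11a is a repressor needed for lymphoid development. Lineage-positive cells were removed before the sort with antibodies that include those to the products of Cd3e, Cd4 and Cd8a. Of the 6 mature lymphocyte genes taken as markers, Cd3e, Cd8a and Ms4a1 (CD20) had no peak within 10 kb in either list, and Cd79a, Cd4 and Nkg7 had no promoter peak. Other genes used by mature T cells, Cd3d, Lat, Lck, Thy1 and Cd27, had a promoter peak in both lists. Of the endothelial and stromal genes inspected beside them, Kdr, Col1a1 and Pdgfrb had a promoter peak in both lists, Cdh5 and Cxcl12 in the WT list only and Pecam1 in the KO list only. How far cells of those types contributed to the lists was not tested. The promoter of Med23 itself had a peak in both lists.

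Each gene was taken with 10 kb on each side, overlapping peaks of the lists were merged into regions, and a region was the gene's own promoter when a peak summit in it lay within 1000 bp of any annotated start of that gene. The windows of the 40 genes held 114 regions, built from 91 WT peaks and 99 KO peaks. Of these, 24 were own promoters, 24 were promoters of other genes and 66 were distal, with 44 of the distal regions in introns, 14 upstream and 8 downstream of the gene. The neighbours Cd3d and Cd3g, Rag1 and Rag2, and Igll1 and Vpreb1 shared 1 region a pair.

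The 200 bp around the summits of 7 regions that carry the comparisons are given first, on the plus strand of mm10. They are the strongest promoter and the strongest distal region found in both lists, the Bach2 intron regions that departed in opposite directions, and 3 regions present in 1 list only, of which the Il7r and Bcl11b promoters were added after their values were seen. Capitals mark matches to the consensus motifs searched, which are TGTGGTT or its reverse complement for RUNX factors, CAGCTG and CAGGTG for E proteins and AGATAAG or its reverse complement for GATA factors.
Sox4 promoter (chr13:28953607-28953806): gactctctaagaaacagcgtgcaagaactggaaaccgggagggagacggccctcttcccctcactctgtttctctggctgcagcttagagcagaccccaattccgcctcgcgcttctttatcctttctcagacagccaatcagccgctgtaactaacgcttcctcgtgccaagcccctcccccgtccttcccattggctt
Bcl11a intron (chr11:24139566-24139765): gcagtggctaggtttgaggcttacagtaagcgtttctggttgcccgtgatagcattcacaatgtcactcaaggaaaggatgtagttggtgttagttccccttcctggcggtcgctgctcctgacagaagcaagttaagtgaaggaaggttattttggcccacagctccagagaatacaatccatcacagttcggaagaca
Bach2 intron, distal region 7 (chr4:32343349-32343548): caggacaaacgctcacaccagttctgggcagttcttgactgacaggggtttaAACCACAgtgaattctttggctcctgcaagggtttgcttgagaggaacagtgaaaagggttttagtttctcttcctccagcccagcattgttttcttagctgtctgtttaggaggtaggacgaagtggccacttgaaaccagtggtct
Bach2 intron, distal region 13 (chr4:32387994-32388193): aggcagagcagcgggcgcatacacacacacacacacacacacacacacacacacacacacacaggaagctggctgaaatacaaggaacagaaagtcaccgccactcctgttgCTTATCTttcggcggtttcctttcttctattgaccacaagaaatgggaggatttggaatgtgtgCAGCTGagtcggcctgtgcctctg
Cd2 downstream (chr3:101274865-101275064): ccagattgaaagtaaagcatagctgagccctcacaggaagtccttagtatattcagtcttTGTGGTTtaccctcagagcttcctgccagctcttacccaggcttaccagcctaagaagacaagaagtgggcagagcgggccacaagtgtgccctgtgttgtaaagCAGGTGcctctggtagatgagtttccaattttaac
Il7r promoter (chr15:9529769-9529968): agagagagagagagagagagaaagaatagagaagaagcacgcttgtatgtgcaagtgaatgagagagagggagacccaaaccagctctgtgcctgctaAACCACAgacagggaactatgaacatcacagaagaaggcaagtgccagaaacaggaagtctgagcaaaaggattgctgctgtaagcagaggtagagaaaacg
Bcl11b promoter (chr12:108004066-108004265): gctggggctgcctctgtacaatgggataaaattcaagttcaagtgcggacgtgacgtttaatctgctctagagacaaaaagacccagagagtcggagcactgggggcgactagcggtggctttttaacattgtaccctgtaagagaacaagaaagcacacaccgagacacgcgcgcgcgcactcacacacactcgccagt
The RUNX letters occurred in the Cd2 region, in the Il7r promoter window and in distal region 7 of Bach2, and they occurred in 12.5% of all distal windows and 4.01% of all promoter windows of this length. CAGCTG lay in distal region 13 of Bach2 beside a GATA match, and CAGGTG lay in the Cd2 region. The windows of Sox4, of the Bcl11a intron and of Bcl11b held none of the 10 motifs searched, which says only that these letters were not within the 200 bp.

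In both lists, 15 of the 40 lymphoid genes had a promoter peak (37.5%, 95% Wilson interval 24.2 to 53.0%), against 58.1% of all protein-coding genes. They were Bach2, Bcl11a, Cd27, Cd3d, Ebf1, Eomes, Il2rg, Lat, Lck, Lef1, Pax5, Satb1, Sox4, Thy1 and Vpreb1. The promoter was in the WT list only for 2 genes, Il7r and Ccr9, against 3.07% of all genes, and in the KO list only for 2 genes, Tcf7 and Bcl11b, against 2.69%. A further 12 genes, 30% of the list against 9.98% of all genes, had distal regions but no promoter peak: Blnk, Ccr7, Cd2, Cd3g, Cd79a, Dntt, Il2ra, Ltb, Rag1, Rag2, Tbx21 and Zap70. Cd247, Cd4, Igll1 and Nkg7 had peaks in their windows only at promoters of other annotated genes (10% of the list against 3.70% of all genes). In Cd247 and Cd4 some of these peaks lay within the gene body. Cd3e, Cd79b, Cd8a, Il2rb and Ms4a1 had no peak in either list (5 of 40, 12.5%, against 22.5% of all genes). The lowest pileup at which a peak of 1 list was called was 6, so a gene without a peak was not detectably open at this depth and is not shown to be closed.

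**Figure D1:**
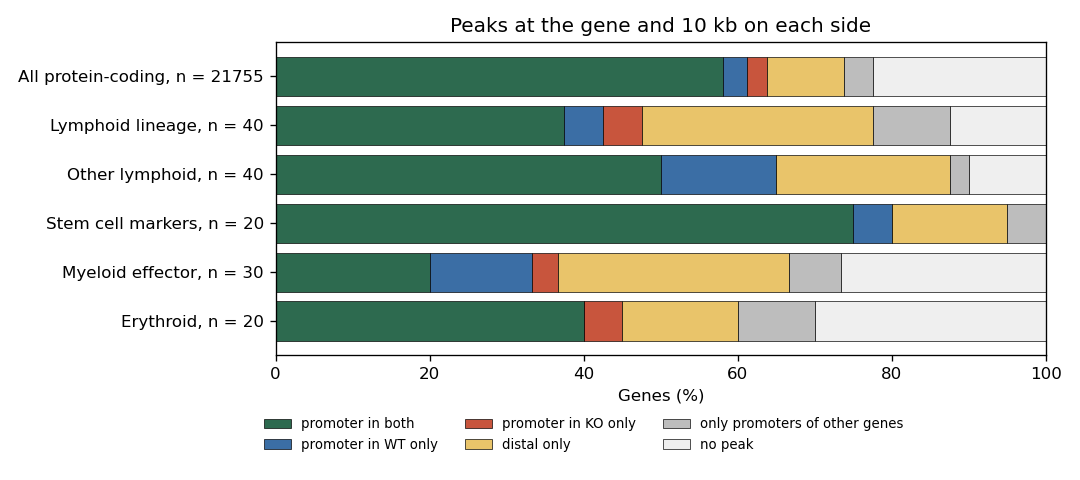
Share of genes (%) in each peak class for all protein-coding genes and 5 gene lists, with the number of genes beside each name. Bars are stacked to 100%, and the lymphoid lineage genes show a promoter peak in both lists for 37.5% and distal regions only for 30%.

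By role, all 5 T lineage factors had a promoter peak, Sox4, Satb1 and Lef1 in both lists and Tcf7 and Bcl11b in the KO list, and the B lineage factors Ebf1 and Pax5 and the repressors Bach2 and Bcl11a had one in both. Of the 8 genes of the T cell receptor complex and T cell surface only Cd3d and Thy1 did, and of the 6 genes of the pre-B and B cell receptor only Vpreb1, whose promoter region also holds the start of Top3b. None of the 4 recombination and early receptor genes, Rag1, Rag2, Dntt and Il7r, had a promoter peak in both lists. With a promoter distance of 2500 bp, Dntt had one in both lists and Rag2 in the KO list only. The roles hold 2 to 8 genes, and the Wilson intervals of their shares overlapped, from 23.1 to 88.2% for the T lineage factors and from 7.15 to 59.1% for the T cell receptor complex and surface genes. When the 11 transcription factors were set beside the other 29 genes, a grouping made after these values were seen, 8 of the factors (72.7%, 43.4 to 90.3%) and 7 of the others (24.1%, 12.2 to 42.1%) had a promoter peak in both lists. The factors also had longer gene bodies, with a median of 96068 bp against 10882 bp, and 10 of the 11 started in a CpG-rich window as against 2 of the 29.

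CpG content at the 5′ end moved with this split. Over the 1000 bp centred on the 5′ end of the gene, the observed over expected CpG ratio had a median of 0.30 in the 40 genes and 0.56 in all genes. It was 0.62 in the 15 genes with a promoter peak in both lists and 0.26 in the 21 genes without a promoter peak, against 0.72 and 0.19 in the same classes of all genes. Among genes with a 5′ end above 0.6, 8 of 12 lymphoid genes had a promoter peak at any start in both lists (66.7%, 39.1 to 86.2%). Of all such genes, 87.9% did. At 0.6 or below it was 7 of 28 (25.0%, 12.7 to 43.4%), an interval that held the 32.3% of all genes. Of the 12 genes with a CpG-rich 5′ end, only Tbx21, a T-box factor of NK and type 1 effector T cells, had no promoter peak. The peak could lie at any annotated start, whereas CpG was measured at the 5′ end only. With the 5′ end as the only start, Pax5 and Lef1 had no promoter peak either, and Bach2 had one in the WT list only. Of the genes at 0.6 or below, Cd3d and Lck then had none and Thy1 one in the KO list only.

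**Figure D2:**
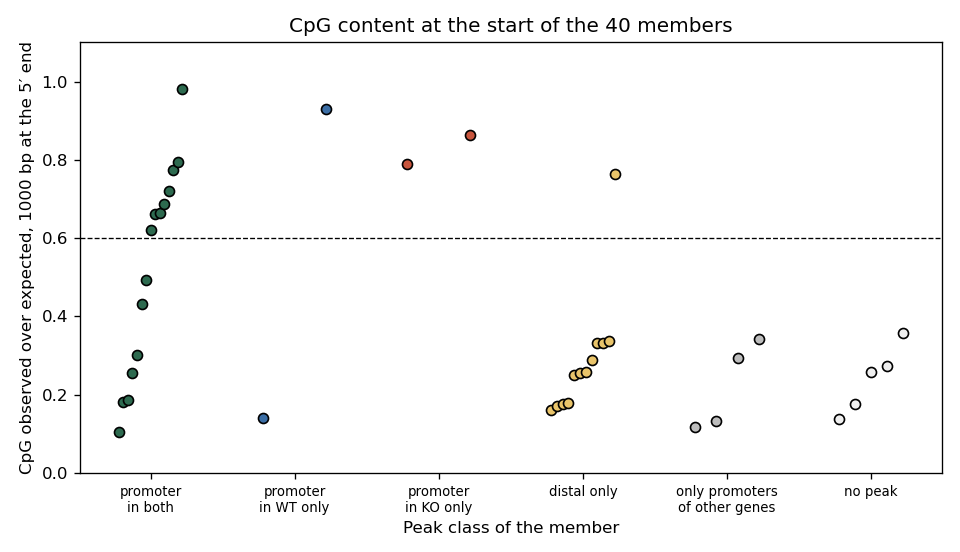
CpG observed over expected ratio in the 1000 bp at the 5′ end (vertical axis) of the 40 genes by peak class (horizontal axis), 1 point a gene. The dashed line marks 0.6; of the 21 genes without a promoter peak only Tbx21 lies above it.

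The peak height was expressed as the pileup, the number of fragments or reads stacked at the summit, which was recovered from the deposited fold enrichment and p-value of each peak. Among genes with a promoter in both lists the strongest promoter peak had a median pileup of 27 in WT and 20 in KO for the 15 lymphoid genes, and of 35 in both lists for all genes. Sox4, an HMG-box factor of lymphoid progenitors, had the strongest promoter, with a pileup of 64 in WT and 80 in KO at chr13:28952429-28953963, with the summit 6 bp inside the gene. Bcl11a followed with 63 in WT and 69 in KO just upstream of its 5′ end, and it had another promoter region at an internal start with 57 and 53. By pileup, these 2 genes stood above all the other lymphoid promoters in both lists. By fold enrichment over local background they did not. The first Bcl11a region lay on a local background of 17.1 in WT and 13.6 in KO, with a fold enrichment of 3.53 and 4.79. The Lat promoter had a fold enrichment of 11.3 in WT and 10.9 in KO, and the Sox4 promoter 6.60 and 9.56.

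Satb1, a chromatin organizer of T cells, had a pileup of 36 in WT and 43 in KO at its 5′ start and of 27 and 31 at an internal one. At the internal start the WT and KO summits lay 1138 bp apart. Bach2 had 34 in WT and 37 in KO in the region at its 5′ end and 35 and 28 at an internal start near its 3′ end. In the 5′ region the KO summit lay 1040 bp inside the gene, and the WT and KO summits were 1119 bp apart. The counting interval of each of these regions held the median ratio of all regions. Vpreb1, the surrogate light chain of the pre-B cell receptor, had 29 in WT and 40 in KO. Pax5, which commits cells to the B lineage, had 27 and 23 at a start 5940 bp inside the gene, and Ebf1, which acts upstream of it, had 21 and 19. The promoters of Vpreb1, Pax5 and Ebf1 were thus present in both lists, at a lower height than those of Sox4 and Bcl11a. Of the other B cell genes, Cd79a, Cd79b, Blnk, Igll1 and Ms4a1 had no promoter peak.

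Among signalling genes, Lat, the adaptor of the T cell receptor, had the strongest promoter, with 47 in WT and 33 in KO. Cd3d had 33 and 20, Il2rg, the common gamma chain of several interleukin receptors, had 18 and 10, and the kinase Lck had 13 and 8. Lef1 had 25 in WT and 17 in KO, and Eomes had 15 and 8. In these 6 genes the KO to WT ratio was at least 1.5-fold below the median ratio of all regions, but each region's interval held that median. Cd27, a costimulatory receptor, had 17 and 16, and Thy1, a T cell surface marker, had 11 in each list. These last genes had nearly equal pileups.

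**Figure D3:**
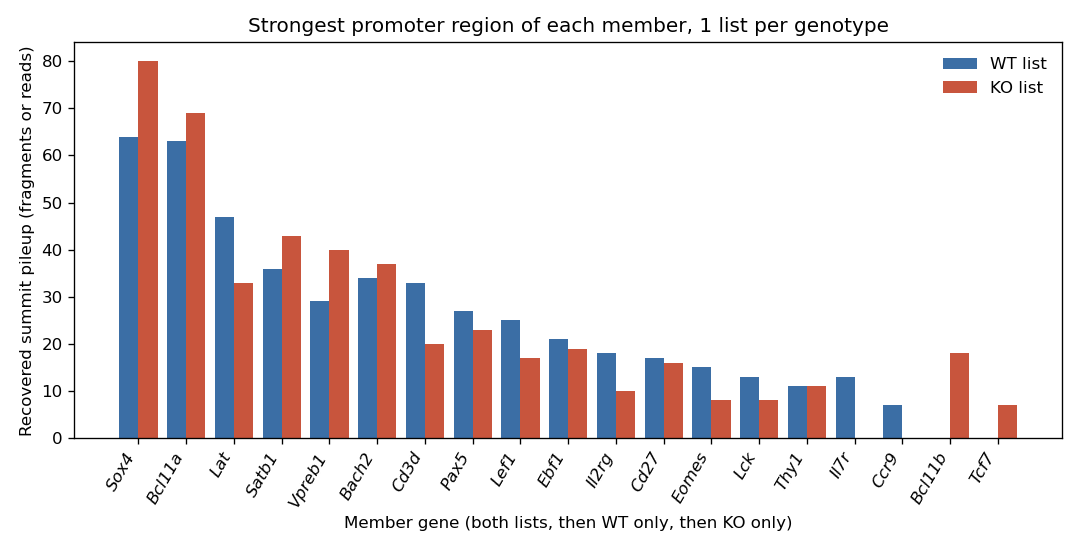
Pileup at the summit (vertical axis, fragments or reads) of the strongest promoter region of the 19 lymphoid genes that had one, in the WT list (blue) and the KO list (red); no error bars, since each genotype has 1 list. Sox4 and Bcl11a are highest in both lists, Il7r and Ccr9 have a WT bar only, and Bcl11b and Tcf7 a KO bar only.

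Several of these promoters lay at secondary starts. When only the 5′ end of each gene was counted as its start, 9 genes had a promoter peak in both lists (Bcl11a, Cd27, Ebf1, Eomes, Il2rg, Lat, Satb1, Sox4 and Vpreb1), against 52.4% of all genes. Cd3d, Lck, Pax5 and Lef1 then had no promoter peak, Bach2 had one in the WT list only, since its KO summit lay just beyond 1000 bp, and Thy1 had one in the KO list only. The Cd3d region lay 4892 bp inside the gene on an exon outside the coding sequence, and the Lck region 17290 bp inside the gene on a coding exon.

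The 4 promoters in 1 list only had low pileups. The promoter of Il7r, the receptor of the cytokine on which early lymphocytes depend, was in the WT list with a pileup of 13 and a −log10 q of 6.86, at chr15:9529842-9530133, in an intron 307 bp inside the gene. That of Ccr9, a homing receptor of thymus and gut, had 7 in WT and shared its region with the starts of Slc6a20a and Gm17200. In the KO list, the promoter of Bcl11b, the factor that seals T cell commitment, had a pileup of 18 and a −log10 q of 9.96 at chr12:108003984-108004262 just upstream of the start. That of Tcf7, an early target of Notch in the thymus, had 7 with a −log10 q of 2.48. With a −log10 q of at least 5 required in both lists, Ccr9 and Tcf7 left these classes and Il7r and Bcl11b kept theirs, while Eomes and Lck were then in the WT list only and Thy1 in the KO list only. With −log10 q of at least 10, neither Il7r nor Bcl11b had any peak, and the promoters in 1 list only were those of Il2rg and Lef1, in WT. With a promoter distance of 500 bp, or with the gene body alone as window, no promoter was in the KO list only, so the calls of Bcl11b and Tcf7 ended there, while Il7r and Ccr9 kept theirs.

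Distal regions of the lymphoid genes were found in both lists in 37 of 66 cases (56.1%, 44.1 to 67.4%), against 53.7% of all distal regions. The WT list alone had 12, or 18.2% against 23.7%, and the KO list alone had 17, or 25.8% against 22.6%. These shares were near those of the whole genome, which lay within their Wilson intervals. Pooled over the windows there were 2.39 distal regions per 100 kb at the lymphoid genes and 1.45 at all genes. Bach2 and Bcl11a weighed heavily in this, with 5.59 per 100 kb together, whereas the other roles had 0.81 to 3.84. Among all 114 regions, 74 were shared by the lists (64.9% against 64.8% of all regions), 16 belonged to WT alone (14.0% against 18.1%) and 24 to KO alone (21.1% against 17.2%). The lymphoid regions in 1 list only had a median pileup of 11 in WT and 13 in KO, against 10 and 11 over all such regions. The shared lymphoid regions were higher, with medians of 23.5 and 23.

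Bach2 held 18 of the 66 distal regions and Bcl11a held 9. At Bach2 (chr4:32238804-32586108, plus strand), 14 of the distal regions were shared, 2 belonged to WT alone and 2 to KO alone, spread over the whole gene body. At Bcl11a (chr11:24078056-24174123, plus strand) the lists differed more, with 6 WT peaks and 12 KO peaks in the window. Its distal regions comprised 4 shared ones, none of WT alone and 5 of KO alone, with pileups of 8 to 14 in the latter. Those 5 had a −log10 q of 2.24 to 4.82, so none of them reached a −log10 q of 5. The Bcl11a regions in both lists had pileups of 18, 56, 28 and 25 in WT and of 26, 69, 38 and 33 in KO, in the order of the gene. All 4 lay above the median ratio of all regions, and their summed log2 ratio was 0.47 (0.13 to 0.82), an interval that held the summed value of all distal regions, 0.23. One more promoter region of Bcl11a, in an intron near its 5′ end, was in the KO list only with a pileup of 31 over a local background of 13.0, and its −log10 q was 3.05. The remaining 39 distal regions, without Bach2 and Bcl11a, were in both lists in 19 cases, with 10 in each list alone.

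**Figure D4:**
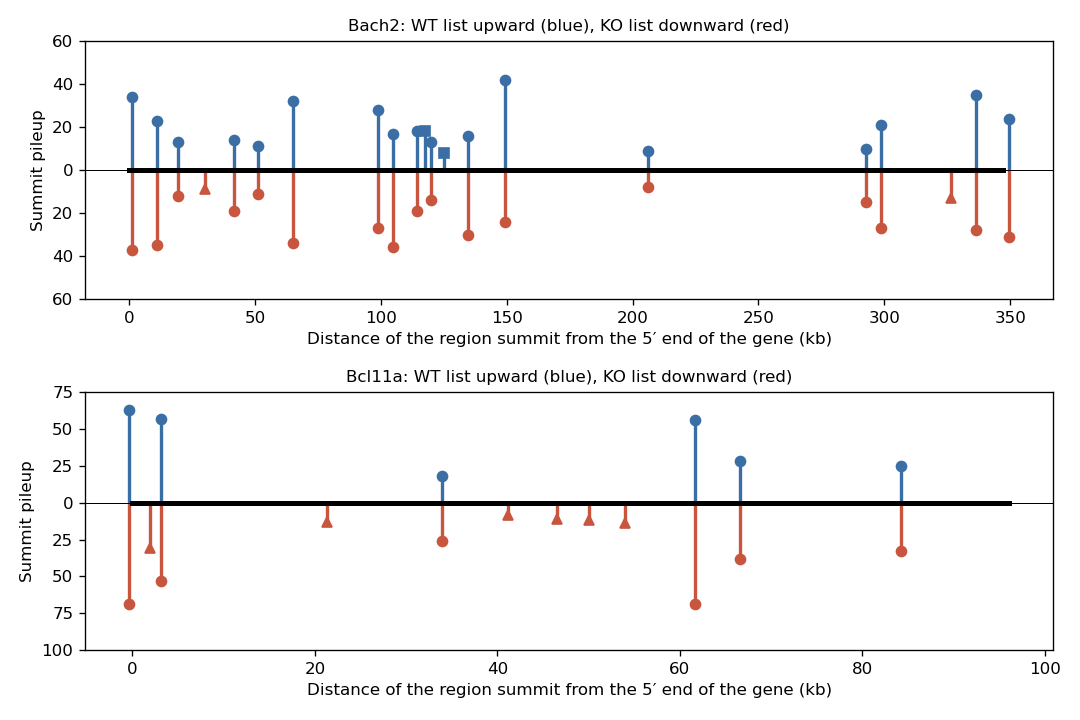
Regions of Bach2 (top) and Bcl11a (bottom) by distance of the summit from the 5′ end of the gene (kb), with the WT pileup drawn upward in blue and the KO pileup downward in red. Circles are regions in both lists, squares WT only and triangles KO only, and the black bar is the gene body; Bcl11a has 6 regions marked by a triangle.

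Of the other genes with many distal regions, Ebf1 had 5, of which 2 were in both lists (22 in WT and 26 in KO, 17 and 19), 1 was in the WT list only with 15 and 2 were in the KO list only with 13 and 10. Il2ra, the alpha chain of the interleukin 2 receptor, had 4 distal regions, all in both lists, with WT pileups of 15 to 23 and KO pileups of 17 to 25, although its promoter had no peak. Lef1, Satb1 and Ccr7 had 3 each. At Satb1 and Ccr7 none of the 3 was in both lists. Dntt, the terminal transferase that adds nucleotides at receptor gene junctions, had an intron region 1931 bp inside the gene with 30 in WT and 38 in KO, and an upstream one in the WT list only with 11. The upstream region of Rag1 had 10 in WT and 8 in KO, and the one upstream of Rag2 was in the KO list only with 16. Bcl11b, Blnk, Cd2, Sox4 and Zap70 had 2 distal regions each, which in Blnk and Zap70 were all in both lists.

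Of the regions in 1 list only, 1 of 16 in WT and 1 of 24 in KO had a −log10 q of at least 10, against 5.79% and 15.1% of all such regions. The WT one was the region downstream of Cd2, an adhesion molecule of T and NK cells, at chr3:101274684-101275109, in the WT list with a pileup of 20 and a −log10 q of 13.1. The KO one lay in an intron of Cd247, which encodes the zeta chain of the T cell receptor, at chr1:165849003-165849525 by the start of Gm37469, in the KO list with a pileup of 30 and a −log10 q of 12.3. Tbx21 and Tcf7 had peaks in the KO list only, with pileups of 7 to 9, and Il7r had its single peak in the WT list.

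In 72 lymphoid regions with 1 peak of each list, the KO to WT ratio of pileup over the genome-wide background was compared with the median of all 28909 such regions, which was 0.17 on the log2 scale or 1.12-fold. The median over the lymphoid regions was 0.09, and the ratio of their summed pileups was 0.10 (0.01 to 0.20). By class the summed log2 ratio was 0.22 (0.08 to 0.36) in the distal regions and 0.02 (−0.15 to 0.19) in the own promoters, where all distal and all promoter regions of the genome had 0.23 and 0.13. Without Bach2 and Bcl11a the value over all classes was 0.03 (−0.09 to 0.14). One lymphoid region had an interval wholly above the median, against 1.91% of all regions, and 2 had one wholly below it, against 1.54%. At 1.5-fold from the median there were 3 above, against 7.63%, and 11 below, against 7.91%. Of the 18 own promoters, 6 were at least 1.5-fold below and none above, and 7.99% of all promoter regions were that far below.

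The region above the median was the Bach2 intron region at chr4:32342994-32344041 (distal region 7), 104645 bp inside the gene. It had a pileup of 17 in WT and 36 in KO and a log2 ratio of 1.17 (0.30 to 2.09), 2.00-fold above the median. Another Bach2 intron region at chr4:32387382-32388752 (distal region 13), 149290 bp inside the gene, was below it, with 42 in WT, 24 in KO and a log2 ratio of −0.72 (−1.51 to 0.04). The same gene thus held regions on either side. The other region below the median was the promoter of Etfb and Gm45233, downstream of Nkg7, an NK granule gene, with 113 in WT, 88 in KO and a log2 ratio of −0.28 (−0.69 to 0.14). The next largest ratios above the median were those of a Bach2 intron region with 16 and 30, at 0.99 (0.07 to 1.97), and of the region upstream of Il2ra with 15 and 25, at 0.82 (−0.16 to 1.85). The lowest was the region upstream of Cd79a, the immunoglobulin alpha chain of the B cell receptor, with 19 and 9, at −0.99 (−2.32 to 0.22).

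**Figure D5:**
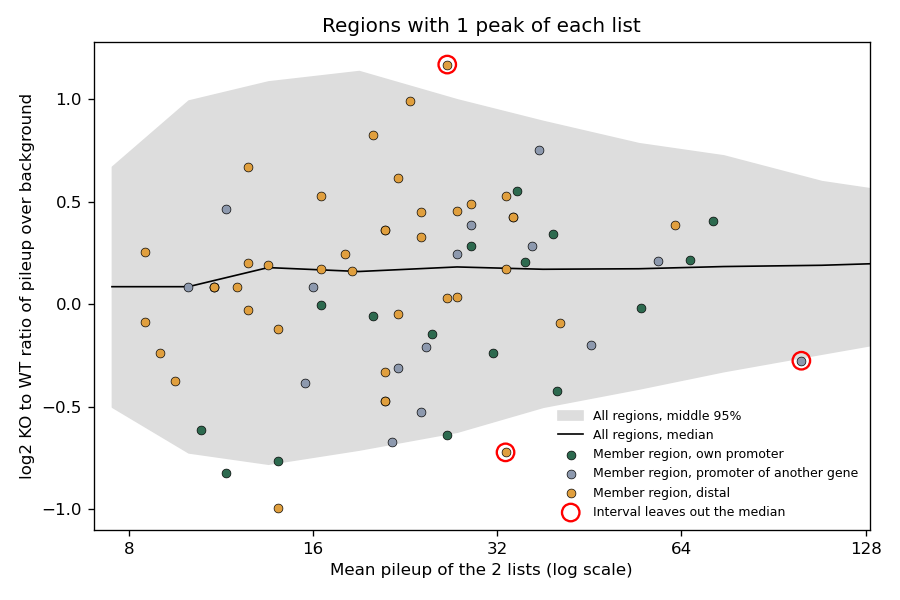
log2 KO to WT ratio (vertical axis) against the mean pileup of the lists (horizontal axis, log scale) for the 72 lymphoid regions with 1 peak of each list, colored by class. The gray band holds the middle 95% of all 28909 regions and the line is their median; the 3 regions ringed in red, at log2 ratios of 1.17, −0.28 and −0.72, have intervals that leave out the overall median.

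Peaks covered 68831 bp of the 40 windows in the WT list and 76699 bp in the KO list, a KO to WT ratio of 1.11. Bcl11a and Bach2 had 2765 bp and 2268 bp more in KO, and without them the ratio was 1.06. Gene by gene, 18 had more covered bases in KO, 16 fewer and 6 the same number, whereas among all genes 38.2% had more and 39.2% fewer. The largest losses were at Lck (2904 bp in WT, 1611 bp in KO) and Il2rg (3027 bp in WT, 2072 bp in KO). Tcf7 and Tbx21 were covered in KO only, with 1007 bp and 332 bp, and Il7r in WT only with 292 bp.

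The 66 distal windows had a median GC content of 51.3%, against 49.0% in all distal regions, and the 24 own promoters had 59.3% against 63.0%. CAGCTG was found in 13 distal windows (19.7%, 11.9 to 30.8%, against 14.8% of all) and the RUNX letters in 11 (16.7%, 9.57 to 27.4%, against 12.5%). The PU.1 letters GAGGAAGT were found in 5 (7.58% against 8.63%), and the EBF1 letters CCCNNGGGA in 1 (1.52% against 2.82%). The share of all distal windows lay within the interval in each of these 4 motifs. The EBF1 letters were in 3 of the 24 own promoter windows (12.5%, 4.34 to 31.0%, against 5.26% of all promoter windows).

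A second list of 40 lymphoid genes, with earlier and later factors such as Flt3, Ikzf1, Tcf3, Gata3 and Notch1, had a promoter peak in both lists for 20 genes (50%, 35.2 to 64.8%). Another 6 of these promoters were found in WT alone (15%, 7.06 to 29.1%, against 3.07% of all genes) and none in KO alone (up to 8.76%, against 2.69%), and with 1 list for each genotype the direction has no test. Among them were Cd22 with a pileup of 11, Cd37 with 16, Cd5 with 8, Gzmb with 7 and Skap1 with 7. The corresponding shares of promoters in both lists were 75% of 20 stem cell marker genes, 40% of 20 erythroid genes and 20% of 30 myeloid effector genes. The lymphoid lineage genes thus lay below the stem cell markers, all genes and the second lymphoid list. They lay near the erythroid genes and above the myeloid effector genes. Their Wilson interval overlapped those of the second lymphoid list, the erythroid genes (21.9 to 61.3%) and the myeloid effector genes (9.51 to 37.3%). A promoter in WT alone was also found for 13.3% of the myeloid effector genes, 5% of the stem cell markers and 0% of the erythroid genes. For KO alone these shares were 3.33%, 0% and 5%. An excess in WT alone was therefore not particular to the second lymphoid list. Distal regions pooled per 100 kb numbered 3.61 at the stem cell markers, 2.79 at the myeloid effector genes, 2.75 at the second lymphoid list and 1.44 at the erythroid genes.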

How the data were processed

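ATAC-seq was analysed from 1 peak list for each genotype, which the labels of both samples of that genotype name; whether replicates were pooled before peak calling is not given in the sources used here. The authors trimmed reads with Trim Galore, used Bowtie2 for alignment to mm10 and Picard to drop duplicate and mitochondrial reads, then called peaks with MACS2 without its shifting model (versions not given), so summit positions depend on the caller's default read extension. The deposited lists give fold enrichment over local background (a ratio), −log10 p and −log10 q and the summit position, and a display score that the authors' caller derives from −log10 q and that was not used. Read totals are unknown.

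The 40 genes, the comparison lists and the motifs were chosen with earlier results of these data known. The genes named were all 40 by peak class, with values for every promoter, for the genes with most distal regions (2 or more, because of ties), for regions outside counting error and for regions in 1 list only with −log10 q of at least 10. The genome was GRCm38.p6 and the annotation GENCODE M21, both of the build used by the authors. Peaks of the 2 lists that overlapped by at least 1 bp formed a region. Pileup and local background at each summit were solved from fold enrichment and −log10 p under the caller's Poisson model, and a whole number matched within 0.001 in 99.99% of peaks. The genome-wide background was the median of the 1000 smallest local values, 1.19 in WT and 1.13 in KO. Ratios have exact binomial 95% intervals of both pileups, with no pseudocount, and a region was outside counting error when its interval left out the median ratio of all regions. Motifs were 10 fixed letter strings searched on both strands. Calculations used Python 3.11.15 with numpy 2.4.6, scipy 1.17.1 and pandas 2.3.3 and were tested on simulated data. Alternatives to the window, promoter distance, peak threshold, overlap rule, start sites and ratio scale were tried. The values of 1 gene of the second lymphoid list are not reported here.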

Additional observations from a re-analysis of the deposited data

How the results depend on the processing

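Of 66 alternative values for 8 results, 39 stayed close to the reported value and 27 moved. A reversal was defined for the summed log2 ratio only, as a change of sign, and none occurred. Against all distal regions, the share in both lists turned from above to below with −log10 q of at least 10 and the 10000 strongest peaks. It also did so with summits within 100 bp and without Bach2 and Bcl11a. The 33 alternative values of the 3 regions outside counting error kept side and call. Window, promoter distance, start sites and ratio scale cannot change such a region's distance from the median, so those values had to agree. Distal region 7 of Bach2 had no value with −log10 q of at least 10 or with the 10000 strongest peaks, and distal region 13 none with the latter, so their calls ended there. Of the moved values, the number of genes with a promoter peak in both lists was 8 with −log10 q of at least 10, 2 with the 10000 strongest peaks of each list and 9 with the 5′ end of the gene only, and those with a promoter in 1 list only were 2 with −log10 q of at least 10. Genes with no peak numbered 12 for the gene body alone, 1 (Cd8a) with 50 kb on each side, 14 with −log10 q of at least 10 and 19 with the 10000 strongest peaks. Distal regions in both lists were 30.0% with the 10000 strongest peaks, 41.3% with an overlap of 50% of both peaks and 30.9% with summits within 100 bp, where all distal regions had 57.1%, 39.5% and 36.1%. Regions in 1 list only numbered 25 for the gene body alone, 67 with 50 kb, 26 and 18 with −log10 q of at least 5 and 10, 16 with the 10000 strongest peaks, 66 with 50% overlap and 92 with summits within 100 bp. The summed log2 ratio was 0.21 with the 10000 strongest peaks (median of all regions 0.18) and 0.26 when the background was divided by the width of the smallest peak (median 0.32). It lay above the median of all regions with the 10000 strongest peaks only, and below it as reported. Regions outside counting error numbered 6 with 50 kb, 1 with the 10000 strongest peaks and 1 without Bach2 and Bcl11a, an alternative chosen after seeing the data. The ratio of covered bases was 1.18 for the gene body alone, 1.05 with 50 kb, 1.23 with the 10000 strongest peaks and 1.06 without Bach2 and Bcl11a. Fewer genes, peaks or bases enter by construction under the stricter or narrower settings; for the rest the cause was not tested. No paired analysis was possible because a genotype is given as 1 list that carries no replicate number, and for the same reason no replicate could be left out.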
